A study of Mus musculus with 8 samples.

Results

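Described here are 6 serpin genes of mouse CD8 T cells, Serpina3f, Serpina3g, Serpinb1a, Serpinb6a, Serpinb6b and Serpinb9, of the 13245 genes analysed. They were chosen by name as the genes of serpin clades a3 and b in the table, and Serpina3f and Serpina3g were in addition picked because they were higher in CD103Tg cells. The CD103Tg against B6 differences of these genes are therefore given as a description, with no test. The table held 9 serpins in all, and the other 3 were Serpinc1, Serpine2 and Serpini1.

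The cells were Ly6C+CXCR3+ CD8 T cells, which the submitters call memory phenotype, taken by sorting from lymph nodes. The B6 group was C57BL/6 mice without the transgene and the CD103Tg group was mice that overexpress CD103 (integrin alpha E, gene Itgae), with 4 libraries in each group. The promoter that drives the transgene, the age and sex of the mice, and whether each library came from a separate animal are not stated in the sources used here. The p-values below therefore speak of the scatter among these libraries, which may be technical. The values are TMM-scaled CPM, the reads of a gene relative to the scaled total of its library. Libraries held 50187279 to 56371476 estimated reads over the listed genes, and 1 read was worth 0.0171 to 0.0203 CPM.

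Serpins inhibit proteases by a suicide mechanism: the protease cuts an exposed reactive centre loop, the loop folds into the body of the serpin, and the protease stays trapped in a covalent complex. Clade b serpins lack a classical secretion signal and act mainly inside cells, where they shield cells from their own granule and lysosomal proteases. In cytotoxic lymphocytes Serpinb9 (Spi6) is the inhibitor of granzyme B, and Serpina3g (Spi2A) is a cytosolic inhibitor of lysosomal cathepsins with a known role in the survival of memory CD8 T cells.

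The genotype labels were checked on Itgae, the gene of the overexpressed product, which averaged 76.1 ± 65.5 CPM over the B6 libraries and 4460 ± 861 CPM over the CD103Tg libraries (SD, n = 4 per group, as for all means below). In B6 replicate 4 Itgae stood at 173.9 CPM, against 37.5 to 51.4 CPM in the other 3 B6 libraries. Cd247, which encodes the CD3 zeta chain, averaged 345 ± 89.2 CPM over B6 and 8711 ± 1001 CPM over CD103Tg, and was again highest among B6 libraries in replicate 4, at 478 CPM. All 10 of the CD8 T cell genes listed were present, with a summed level of 10095 to 11769 CPM in B6 and 9852 to 10922 CPM in CD103Tg. Of these 10 genes 3 fell and none rose (limma adjusted p under 0.05): Trac from 1007 to 642 CPM (adjusted p = 4.9e-05), Cd8a from 1191 to 1006 CPM (0.00602) and Trbc2 from 1043 to 848 CPM (0.0155). In bulk samples such as these, fewer cells of a type and less RNA per cell cannot be told apart.

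The sequences chosen to be shown are those coding for the reactive centre loop, since the loop decides which protease a serpin traps. Below are 72 coding bases of each member from GENCODE M21 (GRCm38), all in the last exon of the transcript used. Capitals mark the 18 bases that code for the conserved hinge, on which the loop swings, and the 54 bases in lower case code for the stretch that follows it.
Serpina3f, chr12:104220245-104220316, plus strand, exon 6 of 6: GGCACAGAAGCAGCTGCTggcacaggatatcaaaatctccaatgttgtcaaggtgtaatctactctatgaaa
Serpina3g, chr12:104241072-104241143, plus strand, exon 5 of 5: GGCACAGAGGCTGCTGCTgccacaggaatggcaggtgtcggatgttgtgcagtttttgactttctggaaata
Serpinb1a, chr13:32842899-32842970, minus strand, exon 7 of 7: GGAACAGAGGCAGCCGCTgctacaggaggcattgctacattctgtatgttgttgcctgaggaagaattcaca
Serpinb6a, chr13:33918122-33918193, minus strand, exon 8 of 8: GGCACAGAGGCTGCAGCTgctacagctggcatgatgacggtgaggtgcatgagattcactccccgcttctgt
Serpinb6b, chr13:32978207-32978278, plus strand, exon 7 of 7: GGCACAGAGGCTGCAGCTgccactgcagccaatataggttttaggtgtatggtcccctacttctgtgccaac
Serpinb9, chr13:33015699-33015770, plus strand, exon 8 of 8: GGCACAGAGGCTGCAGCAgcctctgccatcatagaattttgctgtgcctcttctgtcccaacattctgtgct
The hinge was located in each member by a set pattern of residues, so its likeness between members was fixed in advance. Bases were counted position by position without gaps, so a shift by an inserted or missing codon counts as differences. Counted so, the hinge differed at 0 to 4 bases between any pair of members, and the following 54 bases at 27 to 41. Coding sequences were instead aligned with gaps, so the 2 measures are not alike. Serpina3f and Serpina3g shared 87.4% of 744 aligned coding bases, and 27 of the 54 bases after the hinge differed by the count without gaps. Serpinb6a and Serpinb6b shared 86.2% of 1128 aligned coding bases, with the same hinge and 30 of 54 following bases different by the count without gaps. Serpinb9 was 66.8% identical to Serpinb6b and 67.8% identical to Serpinb6a over the coding sequence, and clade a3 members were 55.3% to 59.6% identical to clade b members. The annotated coding sequence of the Serpina3g transcript is short, 744 bases against 1335 for Serpina3f.

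Because related serpins share sequence, reads can be split between them in counting. For Serpina3f, 10.6% of its exonic words of 50 bases also occur in another annotated gene, and for Serpina3g the share is 15.5%. Only 6.03% of the Serpina3f words occur in Serpina3g, and the main other partners of Serpina3g are Serpina3h (8.89% of its words) and Serpina3i (6.84%). The clade b members are close to unique, with shares of 2.81% for Serpinb1a, 0.751% for Serpinb6a, 2.92% for Serpinb6b and 0.378% for Serpinb9. At 100 bases the shares are 3.40% for Serpina3f and 3.49% for Serpina3g. The levels of the clade a3 pair are therefore less certain than those of the clade b members.

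The clade a3 pair lies in a cluster on chromosome 12 of 14 annotated serpin a3 genes and pseudogenes (10 of them protein-coding) over 302 kb, of which these 2 were analysed. Serpina3g (ENSMUSG00000041481.16, chr12:104236245-104241939, plus strand) stood at 13.4, 14.6, 13.5 and 21.7 CPM in B6 replicates 1 to 4. In CD103Tg replicates 1 to 4 it stood at 187, 174, 182 and 124 CPM. Every CD103Tg library lay far above every B6 library, and within both groups replicate 4 was the nearest to the other group. The mean was 15.8 ± 3.95 CPM in B6 and 167 ± 28.8 CPM in CD103Tg, a ratio of 10.6. On the log2(CPM + 1) scale used for fits, which understates the change of low genes, the difference was 3.33 ± 0.16 (SE).

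Serpina3f (ENSMUSG00000066363.12, chr12:104214544-104221129, plus strand), the neighbour and closest relative of Serpina3g among the members, was scarce in B6. It stood at 1.05, 1.15, 1.10 and 2.25 CPM there, and at 20.1, 21.0, 23.5 and 18.4 CPM in CD103Tg. The groups were again far apart, with B6 replicate 4 the highest of its group and CD103Tg replicate 4 the lowest. The mean was 1.39 ± 0.576 CPM in B6 and 20.7 ± 2.12 CPM in CD103Tg, a ratio of 14.96 and a log2 difference of 3.21 ± 0.15 (SE). Even the low B6 values rested on 57.2 to 131.62 estimated reads per library. Without B6 replicate 4 the ratio was 18.9 for Serpina3f and 12.1 for Serpina3g. That library was also the highest B6 library in Itgae and Cd247, and the part of this in the serpin values was not tested.

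In the clade b group, on chromosome 13, 4 of 16 annotated serpin b1, b6 and b9 genes and pseudogenes (15 of them protein-coding, over 1161 kb) were analysed. Serpinb9 (ENSMUSG00000045827.10, chr13:33003250-33017957, plus strand), the granzyme B inhibitor, was the most abundant of them. It stood at 53.6, 66.5, 61.7 and 57.1 CPM in B6 and at 120.07, 110.9, 97.0 and 112 CPM in CD103Tg. The lowest CD103Tg library was above the highest B6 library, and the spread within each group was narrow. The mean was 59.7 ± 5.60 CPM in B6 and 110.07 ± 9.59 CPM in CD103Tg, a ratio of 1.84 and a log2 difference of 0.87 ± 0.08 (SE).

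Serpinb6b (ENSMUSG00000042842.11, chr13:32965209-32979067, plus strand), known in the mouse as an inhibitor of granzyme A, stood at 24.3, 25.3, 25.2 and 20.2 CPM in B6. In CD103Tg it stood at 45.8, 39.6, 36.0 and 43.8 CPM, again with no overlap between groups. The mean was 23.7 ± 2.40 CPM in B6 and 41.3 ± 4.38 CPM in CD103Tg, a ratio of 1.74 and a log2 difference of 0.78 ± 0.10 (SE). Replicate 4 was the lowest B6 library for this gene, unlike for the clade a3 pair.

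Serpinb6a (ENSMUSG00000060147.15, chr13:33917918-34002794, minus strand), the close relative of Serpinb6b and an inhibitor of cathepsin G and other serine proteases, was the exception. It stood at 25.6, 18.8, 16.8 and 18.9 CPM in B6 and at 19.7, 12.4, 17.6 and 17.0 CPM in CD103Tg. The groups overlapped. The mean was 20.0 ± 3.82 CPM in B6 and 16.7 ± 3.08 CPM in CD103Tg, a ratio of 0.833 and a log2 difference of -0.25 ± 0.15 (SE). Serpinb6a shares exonic bases with Nqo2 (762 bases) and Ripk1 (241 bases) on the opposite strand, and the libraries do not mark strand, so reads there cannot be assigned by strand.

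Serpinb1a (ENSMUSG00000044734.16, chr13:32842092-32851185, minus strand), an inhibitor of neutrophil granule proteases, was the scarcest member. It stood at 0.641, 1.60, 0.268 and 0.990 CPM in B6 and at 1.75, 2.33, 1.86 and 2.01 CPM in CD103Tg. The groups did not overlap, but the gap between the highest B6 and the lowest CD103Tg library was small beside the spread in B6. The mean was 0.875 ± 0.566 CPM in B6 and 1.99 ± 0.252 CPM in CD103Tg, a ratio of 2.27 and a log2 difference of 0.72 ± 0.20 (SE). These values rested on 14 to 82 estimated reads per library in B6 and 86 to 115 in CD103Tg. Of a list of 10 granulocyte marker genes 4 were analysed, with none above the minimum mean for testing. Their summed level was 0.0683 to 3.98 CPM in B6 and 0.268 to 7.19 CPM in CD103Tg. A list for monocytes and macrophages, with 6 of 11 genes analysed, summed to 4.45 to 67.7 CPM in B6 and 16.5 to 102 CPM in CD103Tg, and 2 of its 5 tested genes rose (limma, adjusted p under 0.05). The part of such cells in the Serpinb1a difference was not tested.

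**Figure D1:**
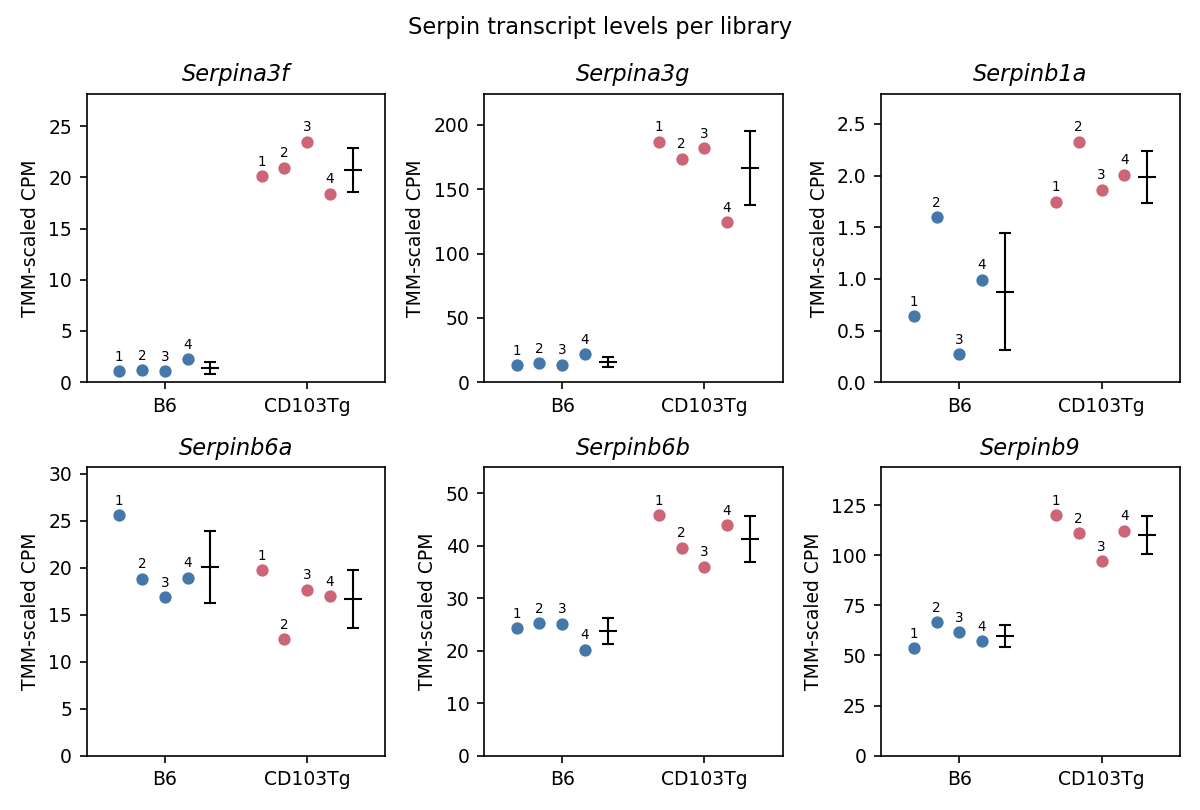
TMM-scaled CPM of the 6 serpins (y axis, from 0) in each library of B6 and CD103Tg (x axis). Points are single libraries with their replicate number and the bar beside them is the mean ± SD (n = 4). The groups overlap for Serpinb6a alone, and replicate 4 of each group lies nearest to the other group for Serpina3g.

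In all, 5 of the 6 members had groups that did not overlap, with CD103Tg above B6. Over the 11503 genes averaging 1 CPM or more, 31.0% did not overlap in either direction and 17.4% lay above B6. The median log2 difference of the members was 0.82, beside -0.005 for all genes tested. By signed log2 difference, from the most positive of those 11503 genes downward, Serpina3g ranked 13 and Serpina3f 17. Serpinb9 ranked 503, Serpinb6b 580, Serpinb1a 652 and Serpinb6a, whose difference was negative, 9735. As members were chosen in part for their rise, nothing is read from these counts.

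Levels of different genes were compared per kilobase of exons. In B6 the order was Serpinb9 at 17.1 ± 1.60 CPM per kb, Serpinb6b at 10.5 ± 1.06, Serpina3g at 7.50 ± 1.88, Serpinb6a at 3.70 ± 0.706, Serpina3f at 0.605 ± 0.251 and Serpinb1a at 0.380 ± 0.246. The ranges of Serpinb6b and Serpina3g overlapped, as did those of Serpina3f and Serpinb1a. In CD103Tg Serpina3g came first at 79.2 ± 13.7 CPM per kb, then Serpinb9 at 31.5 ± 2.74, Serpinb6b at 18.3 ± 1.94, Serpina3f at 9.05 ± 0.927, Serpinb6a at 3.08 ± 0.570 and Serpinb1a at 0.863 ± 0.109. By exon length no neighbours in that order overlapped. The place of Serpinb6a depends on the length used. Its exons add up to 5409 bases, but the single transcript taken for each gene, that with the longest coding sequence, has 1504. Per kb of that transcript Serpinb6a stood at 13.3 ± 2.54 in B6, with a range that overlapped those of both its neighbours. These were Serpinb9 above it (17.2 ± 1.61) and Serpinb6b below it (10.8 ± 1.10). In CD103Tg it then stood at 11.1 ± 2.05, above Serpina3f at 9.22 ± 0.944, and these ranges overlapped.

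The summed level of the 6 serpins was 39.8 ± 1.72 CPM per kb in B6 and 142 ± 14.2 CPM per kb in CD103Tg. Serpinb9 made up 42.9% ± 2.90 of that sum in B6 and 22.3% ± 2.88 in CD103Tg, although its own level was higher in CD103Tg. Serpina3g made up 18.8% ± 4.41 in B6 and 55.5% ± 5.06 in CD103Tg. The share of Serpina3f was 1.52% ± 0.606 and 6.40% ± 0.622, that of Serpinb6b 26.4% ± 3.02 and 12.97% ± 2.04, and that of Serpinb6a 9.36% ± 2.10 and 2.18% ± 0.416. By length of 1 transcript the share of Serpinb6a was 26.0% ± 4.61 in B6 and 6.78% ± 1.26 in CD103Tg, that of Serpinb9 33.6% ± 3.38 and 19.4% ± 2.56, and that of Serpina3g 17.1% ± 4.11 and 55.9% ± 5.03. Serpina3g held the largest share in every CD103Tg library by either length. Serpinb9 did so in every B6 library by exon length, but by transcript length Serpinb6a exceeded it in B6 replicate 1 (32.9% against 29.8%).

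**Figure D2:**
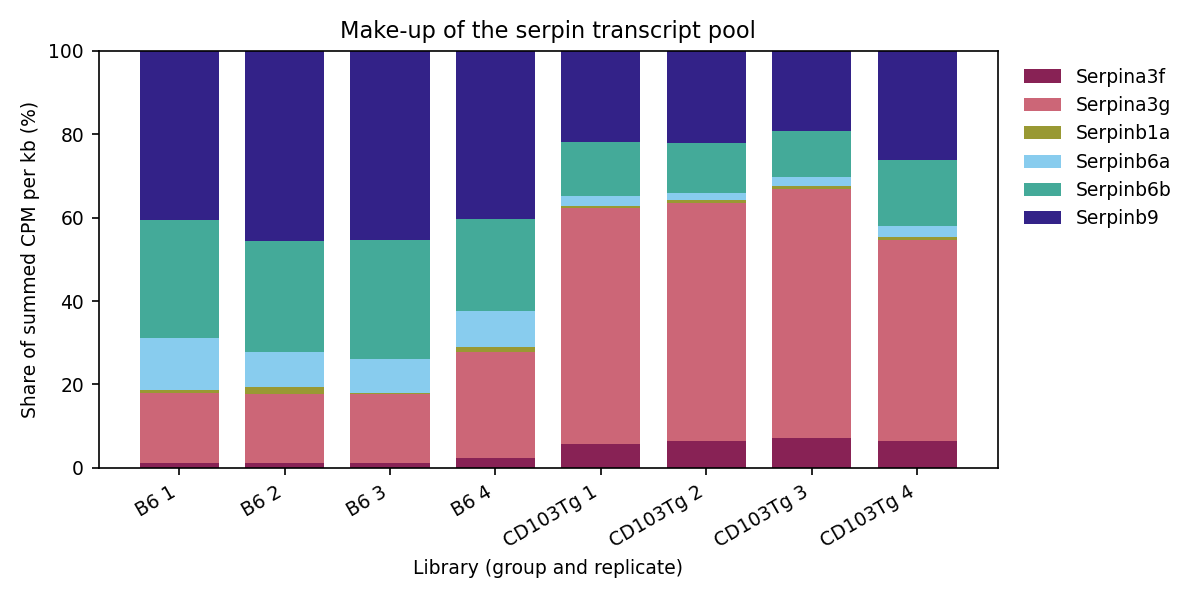
Share of each serpin in the summed CPM per kb of exons of the 6 (y axis, percent) in each library (x axis), stacked in 1 bar per library. Serpina3g makes up 48.2% or more of every CD103Tg bar and 25.4% or less of every B6 bar, while the Serpinb6a share depends on the length used.

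Ratios within a library do not depend on the scaling of that library. The ratio of Serpina3g to Serpina3f per kb was 13.9, 13.8, 13.4 and 10.5 in B6 and 10.1, 9.02, 8.41 and 7.35 in CD103Tg. Its mean was 12.9 ± 1.61 in B6 and 8.73 ± 1.16 in CD103Tg without overlap, so the rarer of the pair differed by the larger factor. The ratio of Serpinb6b to Serpinb6a was 2.90 ± 0.598 in B6 and 6.06 ± 1.17 in CD103Tg, also without overlap. By length of 1 transcript this ratio was 0.832 ± 0.172 and 1.74 ± 0.337, again without overlap, so which of the pair was higher in B6 depends on the length. In contrast, Serpinb9 to Serpinb6b stood at 1.64 ± 0.171 in B6 and 1.73 ± 0.0665 in CD103Tg, with overlapping groups. The groups thus lay apart in the ratio of each pair of close relatives, and overlapped in the ratio of the 2 granzyme inhibitors. Serpina3f and Serpina3g were picked for their rise, and no share over ratios of all gene pairs was taken, so nothing is read from this.

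**Figure D3:**
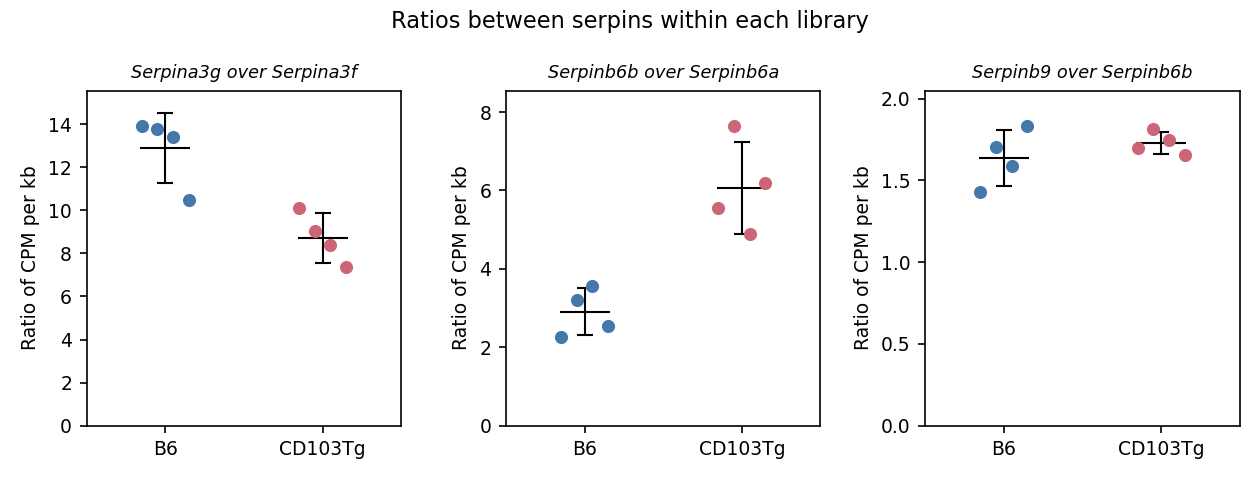
Ratio of CPM per kb between serpins within each library (y axis, from 0) in B6 and CD103Tg (x axis). Points are libraries and bars are mean ± SD (n = 4). The groups are apart for Serpina3g over Serpina3f and for Serpinb6b over Serpinb6a, and overlap for Serpinb9 over Serpinb6b, where they centre on 1.64 and 1.73.

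Within groups the 2 clade a3 genes deviated alike in the libraries numbered 4. On the log2 scale B6 replicate 4 lay 0.47 above its group mean for Serpina3f and 0.46 for Serpina3g, but at -0.22 for Serpinb6b and -0.06 for Serpinb9. CD103Tg replicate 4 lay at -0.16 for Serpina3f and -0.40 for Serpina3g. With groups of 4, these are values and no test.

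Serpina3f and Serpina3g were both picked for their rise, so that they differed together is no finding. As a description, the 250 bases before the RefSeq starts of the 2 genes (GRCm38.p6, plus strand) were compared. Capitals mark matches to TTCNNNGAA, the spaced palindrome that STAT factors bind, and to a loose form of the NF-kappa B site (GGG, any 5 bases, CC), both searched on both strands.
Serpina3f, chr12:104214294-104214543: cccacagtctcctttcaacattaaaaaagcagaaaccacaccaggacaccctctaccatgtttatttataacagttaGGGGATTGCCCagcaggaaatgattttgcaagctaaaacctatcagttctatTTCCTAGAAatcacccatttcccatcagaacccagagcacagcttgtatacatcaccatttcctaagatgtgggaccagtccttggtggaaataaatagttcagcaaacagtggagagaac
Serpina3g, chr12:104235897-104236146: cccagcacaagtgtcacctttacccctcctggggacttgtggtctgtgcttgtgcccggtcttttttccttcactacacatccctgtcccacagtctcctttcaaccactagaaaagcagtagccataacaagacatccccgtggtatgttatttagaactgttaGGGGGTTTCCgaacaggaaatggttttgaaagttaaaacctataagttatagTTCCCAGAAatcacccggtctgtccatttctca
Along their best local alignment 115 of 145 bases (79.3%) were identical, so the windows are related sequences and their matches are not separate observations. The TTCNNNGAA match reads TTCCTAGAA in Serpina3f, from base -121 to -113 before the start, and TTCCCAGAA in Serpina3g, from -33 to -25. RefSeq holds a second Serpina3f start, before which the same match lies from -210 to -202 and the NF-kappa B form is outside the window. Serpina3f holds 2 overlapping matches to the NF-kappa B form, in the stretch GGGGATTGCCC, and Serpina3g holds GGGGGTTTCC, from -85 to -76. In both genes the first bases of the 2 motifs lie 52 apart. Of 32851 promoter windows of this length, 7.02% held TTCNNNGAA, 45.8% held the NF-kappa B form and 2.66% held both. The spacing of 52, chosen after these promoters were seen, occurred in 5 windows, those of Serpina3f, Serpina3g, Serpina3i, Scn2a and Gm31803. Serpinb9 held neither motif but held TTTCACTTTC, from -46 to -37, a match to a loose form of the interferon response element (TTTC, any 2 bases, TTTC) that 2.98% of windows held. The upstream of 2 Serpinb6a starts held TTCCGGGAA and the overlapping TTTCGATTTC, the downstream held neither, and Serpinb6b held none of the 3. Serpinb1a was not analysed here. A match describes letters and shows no binding.

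Genes for factors of the NF-kappa B and STAT families were examined from a list of 18, all tested. In CD103Tg 3 rose, 2 fell and 13 did not pass (limma on log2(CPM + 1), Benjamini-Hochberg adjusted p under 0.05, for which 31.2% of all genes passed, 17.4% higher and 13.8% lower). The median log2 difference was 0.03. Stat2 rose from 52.5 ± 5.25 to 90.5 ± 17.4 CPM (log2 difference 0.76 ± 0.13, limma adjusted p = 0.000991). Its product carries interferon signals to the nucleus. Stat5b, which carries cytokine receptor signals, fell from 177 ± 9.83 to 146 ± 7.35 CPM (-0.28 ± 0.06, adjusted p = 0.00397). Nfkbib, which encodes an NF-kappa B inhibitor, rose from 51.9 ± 2.85 to 59.5 ± 2.08 CPM (0.20 ± 0.06, adjusted p = 0.0261), a call lost without any 1 of 4 libraries (B6 replicates 1 and 4, CD103Tg replicates 1 and 2). In the fit blocked on replicate number 5 of the list rose, and without B6 replicate 2, 6 rose. Without B6 replicate 1 or 3, or CD103Tg replicate 1 or 3, 1 fell in place of 2. Rela, the main activating NF-kappa B subunit, stood at 229 ± 6.57 and 222 ± 16.3 CPM (adjusted p = 0.609).

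The proteases that serpins meet in a cytotoxic cell are the granzymes, and all 5 tested of 11 listed genes for granzymes and perforin rose, with a median log2 difference of 1.95. Gzmb, the target of Serpinb9, rose from 4.28 ± 2.51 to 101 ± 27.2 CPM (log2 difference 4.33 ± 0.28, limma adjusted p = 1.85e-06). Gzma, the target of Serpinb6b, rose from 3.84 ± 0.674 to 27.7 ± 14.7 CPM (2.46 ± 0.26, adjusted p = 3.9e-05). Gzmk rose from 3.00 ± 1.25 to 14.3 ± 4.44 CPM (1.95 ± 0.24, adjusted p = 0.000104) and Gzmm from 65.8 ± 12.5 to 187 ± 49.3 CPM (1.47 ± 0.18, adjusted p = 0.000128). Prf1, which encodes perforin, stood at 287 ± 13.2 and 393 ± 76.5 CPM (adjusted p = 0.0155).

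Transcripts of the protease and of its inhibitor differed by unlike factors. Per kb, Gzmb over Serpinb9 was 0.170, 0.290, 0.122 and 0.0997 in B6 replicates 1 to 4. In CD103Tg it was 2.61, 2.44, 1.62 and 2.12. The mean was 0.170 ± 0.0852 in B6 and 2.20 ± 0.436 in CD103Tg, so that Serpinb9 was the more abundant transcript in every B6 library and Gzmb in every CD103Tg library. The list of NK cell markers, which shares Gzma with the granzymes, summed to 287 to 325 CPM in B6 and 470 to 584 CPM in CD103Tg, of which Eomes, also expressed by memory CD8 T cells, held 164 and 345 CPM. Its 8 tested genes gave 6 that rose and 1 that fell. The part of such cells in the serpin and granzyme values was not tested.

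Lysosomal cathepsins are the known targets of Serpina3g. Of 14 listed genes for cathepsins and legumain 12 were tested: 3 rose, 1 fell and 8 did not pass, with a median log2 difference of 0.13. Ctsl fell from 12.6 ± 1.96 to 4.09 ± 0.640 CPM (log2 difference -1.42 ± 0.13, limma adjusted p = 1.59e-05). Ctsh rose from 0.754 ± 0.333 to 2.85 ± 0.530 CPM (1.14 ± 0.17, adjusted p = 0.000364). Ctsw, the cathepsin of cytotoxic lymphocytes, rose from 864 ± 49.4 to 1202 ± 95.8 CPM (0.47 ± 0.07, adjusted p = 0.00042). Ctsd rose from 1061 ± 55.6 to 1262 ± 132 CPM (0.25 ± 0.08, adjusted p = 0.035), a call lost without any 1 of 6 libraries, namely all except B6 replicate 3 and CD103Tg replicate 4. Ctsb, whose product is inhibited by Serpina3g, stood at 256 ± 20.7 and 249.6 ± 20.8 CPM (-0.04 ± 0.07, adjusted p = 0.749). Ctsh is also a gene of antigen-presenting cells. A dendritic cell list with 8 of 10 genes analysed summed to 16.8 to 25.9 CPM in B6 and 60.2 to 88.2 CPM in CD103Tg, with 5 of 6 tested genes higher, and a B cell list with 7 of 10 analysed summed to 46.3 to 51.5 CPM and 120.0 to 139 CPM, with 3 of 4 higher. Their part in the cathepsin and serpin values was not tested.

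Neutrophil and mast cell serine proteases, the usual targets of Serpinb1a, were represented by 11 listed genes, none of which was analysed here. Protease inhibitors of other families numbered 8 tested of 18 listed: 3 rose, 1 fell and 4 did not pass, with a median log2 difference of 0.06. Cst7 (cystatin F), an inhibitor of cysteine cathepsins in cytotoxic cells, rose from 208 ± 13.1 to 300.2 ± 38.5 CPM (log2 difference 0.52 ± 0.08, limma adjusted p = 0.000789). Reck, a membrane inhibitor of metalloproteases, rose from 70.0 ± 3.19 to 97.3 ± 7.72 CPM (0.47 ± 0.07, adjusted p = 0.000295). Cst3 (0.29 ± 0.08, adjusted p = 0.0205) rose and Spint2 (-0.23 ± 0.07, adjusted p = 0.0377) fell. The Cst3 call was lost without any 1 of 3 libraries (B6 replicate 1, CD103Tg replicates 1 and 2) and the Spint2 call without any 1 of 6 (all except B6 replicate 4 and CD103Tg replicate 1).

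**Figure D4:**
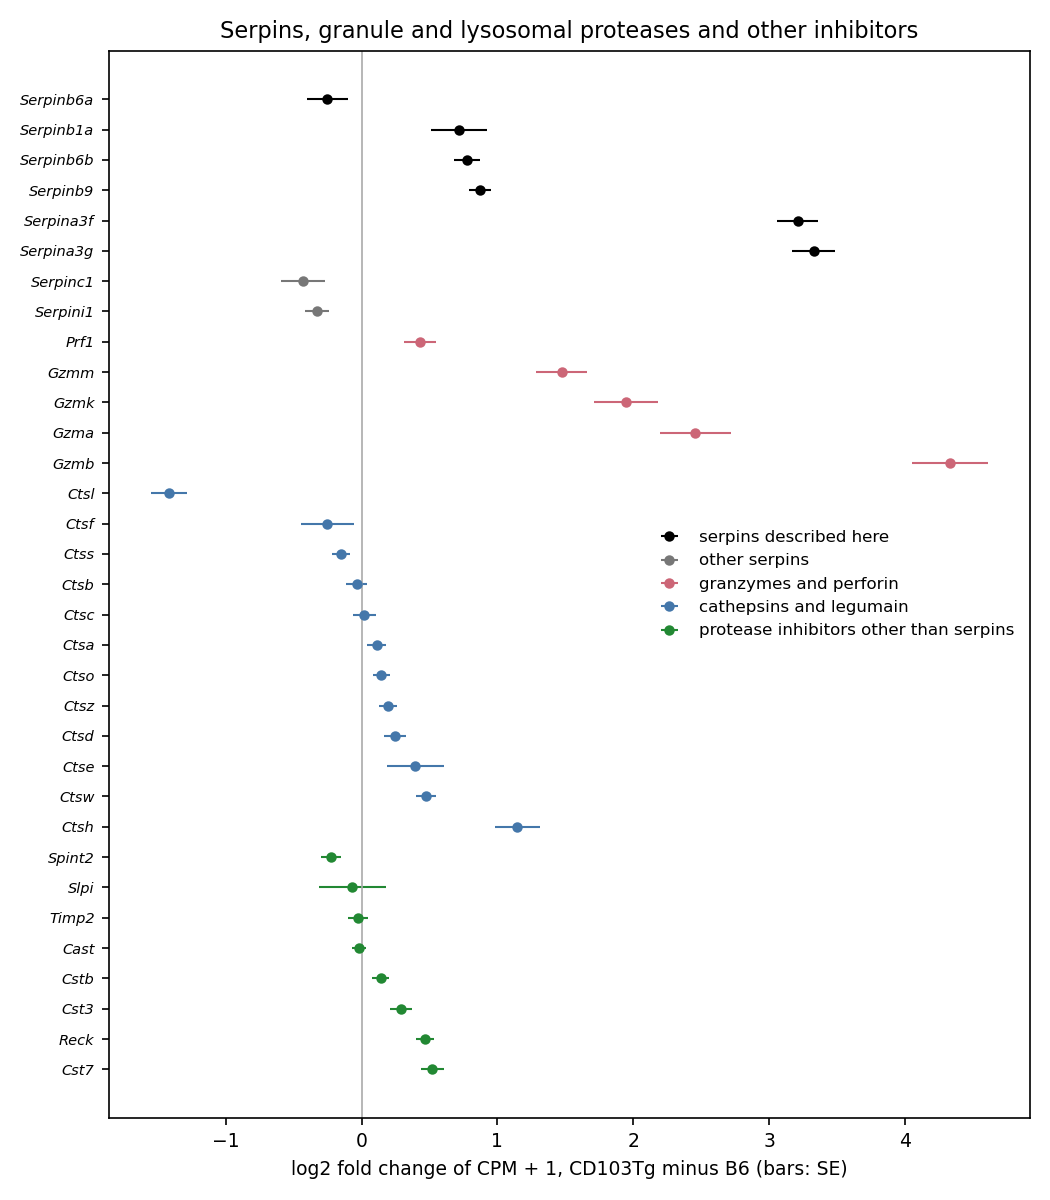
Log2 difference of CPM + 1, CD103Tg minus B6 (x axis; bars are the SE), for the 6 serpins, the tested other serpins, granzymes and perforin, cathepsins and legumain, and other protease inhibitors (y axis). Gzmb lies at 4.33, Serpina3g at 3.33 and Ctsl at -1.42, and most cathepsins and other inhibitors lie near 0.

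Of the other serpins 1 of 2 tested fell and none rose. Serpini1 (neuroserpin) fell from 43.5 ± 4.91 to 34.3 ± 2.53 CPM (log2 difference -0.33 ± 0.09, limma adjusted p = 0.0152). Serpinc1 (antithrombin) stood at 2.04 ± 0.387 and 1.27 ± 0.431 CPM (-0.43 ± 0.16, adjusted p = 0.0656), which did not pass but did under quantile normalization (0.0429), array weights (0.0386), the replicate block (0.0463), without CD103Tg replicate 4 (0.0175) and without both libraries numbered 4 (0.0349). Serpine2 had a mean of 0.459 CPM over all libraries and was not tested.

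Apart from the members, 8 tested genes lay within 500 kb of them. None of these rose, where 17.4% of all genes tested were higher in CD103Tg (limma adjusted p under 0.05). With so few genes, nothing is read from this count. Within 500 kb of the chromosome 12 pair the 1 tested gene, Dicer1, which encodes the nuclease that matures microRNAs, fell (log2 difference -0.26 ± 0.07, limma adjusted p = 0.0183). Of 7 tested genes within 500 kb of the chromosome 13 members, Tubb2a, a beta tubulin gene, fell (-0.65 ± 0.12, adjusted p = 0.00153) and 6 did not pass. Those 6 included Nqo2, which encodes a quinone reductase and lies within the span of Serpinb6a (0.24 ± 0.11, adjusted p = 0.134). Another was Ripk1, which encodes a kinase of cell death signalling (0.10 ± 0.05, adjusted p = 0.16). Both share exonic bases with Serpinb6a, as given above, so their values are not fully separate from those of that member.

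Profiles most like each member over the 8 libraries were ranked among 8788 genes by the root mean square difference of log2(CPM + 1) after centring. Centring was over both groups, so the CD103Tg against B6 difference, for which Serpina3f and Serpina3g were picked, enters this measure. For genes with large differences, nearness is therefore mostly likeness of that difference, and shared control was not tested. Nearest to Serpina3g were Bhlhe40 (0.151), Cish (0.160) and Il12rb2 (0.166), and nearest to Serpina3f were Il12rb2 (0.170), Kcnip3 (0.192) and Cish (0.210). The log2 differences of these genes were 3.09 to 3.34, beside 3.33 for Serpina3g and 3.21 for Serpina3f. Il12rb2 encodes a chain of the interleukin 12 receptor, Cish a suppressor of cytokine signalling and Bhlhe40 a transcription factor. Ada, which encodes adenosine deaminase, and the histone gene H2afx were near both Serpinb6b (0.0825 and 0.113) and Serpinb9 (0.115 and 0.119). For Serpinb6b, Rnf19b (0.0973) lay between Ada and H2afx, and for Serpinb9, Sdf2l1 (0.101) was nearer than both. Nearest to Serpinb6a were Gstm4 (0.0716), Fndc10 (0.0984) and Dhx35 (0.106), and to Serpinb1a Rufy3 (0.175), Scd2 (0.187) and Mcm8 (0.191). Between members the difference was 0.134 for Serpina3f and Serpina3g, 0.107 for Serpinb6b and Serpinb9, and 0.565 for Serpinb6a and Serpinb6b.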

How the data were processed

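Libraries were made with SMART-Seq v4 and Nextera XT, per the labels' protocols, which use no molecular identifiers and do not mark strand. Tools in the submitters' processing notes are STAR 2.7.0f, RSEM, cutadapt 1.18 and bcl2fastq 2.17, and the build is GRCm38. The authors deposited 1 table of normalized signal, TMM-scaled CPM of a filtered gene set, per the labels. The sources used here do not give that filter. All 13245 gene IDs matched GENCODE M21. Per library 63.0% to 65.2% of values were whole reads within 0.005 of a read, so estimated reads were recovered for depth and for an alternative test.

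Genes averaging 1 CPM or more were fitted by limma 3.58.1 (R 4.3.3) after adding 1 CPM and taking log2 (trend, genotype alone, two-sided, Benjamini-Hochberg, adjusted p under 0.05). The fit was tested on simulated data. Sequences, tables and figures were made with Python 3.11.15, Biopython 1.88, numpy 2.4.6, pandas 2.3.3 and matplotlib 3.10.9. Members, gene lists and tests were chosen with earlier results of these data known. Named were all members, the other tested serpins, the 4 genes with the smallest p of each pathway list, the 3 profiles nearest to each member and the label genes. Prf1, Ctsb, Rela, Eomes and the neighbouring genes were added with their values known. Not every gene that this rule selects is reported here. Alternatives were other pseudocounts, filters, scalings, weights, a replicate block and leaving out each library. Limma voom on estimated reads, leaving out both libraries numbered 4 and length by 1 transcript were chosen after seeing the data.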

Additional observations from a re-analysis of the deposited data

Results flagged for a closer look

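In B6 replicate 4 Serpina3f stood at 2.25 CPM, apart from the 1.05 to 1.15 CPM of the other 3 B6 libraries. In the same library Serpina3g stood at 21.7 CPM, against 13.4 to 14.6 CPM in the others. Stat5b stood at 162 CPM in that library, below the 181 to 182 CPM of the others. Itgae stood at 173.9 CPM there, against 37.5 to 51.4 CPM, and Cd247 at 478 CPM, against 285 to 315 CPM. The gap to the nearest library made up 0.913, 0.856, 0.939, 0.898 and 0.847 of the range of the group in this order, above Dixon's critical value for 4 samples. Among 74 such groups of 4 libraries, over 37 genes, these 5 were apart, all in B6 replicate 4. Chance sets apart about 1 in 20 groups.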

How the results depend on the processing

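The direction of all 6 serpins held under the alternatives run for them. The log2 difference of Serpina3f was 3.87 with a pseudocount of 0.1, 2.01 with 5 and 3.95 with limma voom on estimated reads. That of Serpinb1a was 1.30, 0.25 and 1.43 under the same settings. The pseudocount by its construction shrinks differences of low genes, and the cause of the shift with voom was not tested. Serpinb1a falls below a minimum mean of 5 CPM and has no value there. The other members ranged over all settings from 3.05 to 3.62 (Serpina3g), 0.67 to 0.84 (Serpinb6b), 0.82 to 0.93 (Serpinb9) and -0.33 to -0.12 (Serpinb6a). Leaving out 1 library gave 3.15 to 3.37 for Serpina3f and 0.55 to 0.89 for Serpinb1a. The number of genes passing over all genes was 2786 to 3968 against 3592, and quantile normalization gave 1745 higher and 1989 lower against 2000 and 1592. In the fit with a replicate block, Serpina3g stood at 3.33 and 3682 genes passed. Deviations of same-numbered libraries correlated at 0.221, 0.350, -0.0807 and 0.123, that is, 3 of 4 above 0.1. B6 replicate 4 correlated more with CD103Tg replicate 3 (0.236) than with replicate 4. As not every pair exceeded 0.1 and no label ties the numbers to a batch, the block was not part of the reported fit. Whether some pairs share a batch was not tested. Serpinb1a, at under 3 CPM in every library, is the member that depth limits most.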
